A study of Homo sapiens with 6 samples.

Results

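The oxidative phosphorylation machinery of the inner mitochondrial membrane was examined here through the nuclear genes of its complexes II to V and of cytochrome c. The set holds 40 genes, taken by gene symbol from a named list of subunits, out of 62754 gene rows in each deposited table, and each of the 40 symbols matched 1 row. By complex, 4 genes belong to complex II, 10 to complex III with cytochrome c, 11 to complex IV and 15 to complex V. Messenger RNA was sequenced in HUDEP-2, an established erythroid precursor line derived from human cord blood. One group of 3 libraries carried a lentiviral short hairpin RNA (shRNA) labelled MEN1sh2 against MEN1, which encodes the chromatin scaffold menin, and the other group of 3 carried a control hairpin with no intended target. Both groups grew in StemSpan SFEM with doxycycline (1 µg/ml), SCF (50 ng/ml), EPO (3 units/ml) and dexamethasone (1e-06 M). Both were also selected with 2 µg/ml puromycin, begun 24 h after infection and kept on for 48 h, and all libraries belong to the 72 h time point. A single MEN1 hairpin in 1 cell line was sequenced, so loss of menin and other targets of that hairpin cannot be told apart. The replicates are labelled biological, and the labels do not say whether they were separate transductions, so p-values measure only the spread between these samples.

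Complex II, succinate dehydrogenase, passes electrons from the Krebs cycle to ubiquinone. Complex III hands them on to cytochrome c, complex IV gives them to oxygen, and complex V, the ATP synthase, uses the proton gradient so built to make ATP. Complexes III, IV and V also hold subunits encoded by the mitochondrial genome, while all complex II subunits are nuclear. Erythroid precursors depend on mitochondria for heme synthesis and clear them before they become mature red cells.

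MEN1 itself was measured first, as a check of the labels. Its level was 6.29, 6.44 and 6.88 TPM, a length-corrected share of all transcripts in a library, under MEN1 shRNA and 41.2, 39.6 and 37.1 TPM with the control shRNA. The groups lay well apart, with a log2 fold change of -2.42 (SE 0.0803, limma adjusted p = 8.54e-06). Depth inferred from the deposited values was 18426388 to 35797507 read pairs per library, and the 40 genes were covered by 13.1 to 3318 reads per base. All 10 erythroid defining markers reached 1 TPM in every library, and 11 of 14 markers of other blood cells stayed under 1 TPM in all of them. The erythroid markers summed to 95907 to 107883 TPM under MEN1 shRNA and to 55447 to 61495 TPM in the controls, and 7 of the 10 rose. Most of that sum was globin: HBB (mean 50170.5 against 30237.5 TPM), HBA1 (23557 against 12208) and HBA2 (23236 against 11975). The other 3 markers, KLF1, GATA1 and EPOR, had log2 fold changes of -0.05, 0.06 and 0.02 (limma adjusted p = 0.508, 0.327 and 0.859). The markers of other blood cells summed to 70.6 to 82.3 TPM against 115 to 171 TPM, and the 3 of them with enough signal to test, LYZ, ITGA2B and PRG2, all fell. Over all genes tested, 22.1% rose and 31.5% fell. Globin and mitochondrially encoded transcripts took 11.3% to 12.3% of all TPM under MEN1 shRNA and 7.43% to 8.01% in the controls. These shifts move with the group, and their part in the differences below was not tested. In bulk RNA, fewer cells of a type and less RNA per cell cannot be told apart.

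Most subunit genes that changed were lower with the MEN1 shRNA, and 1 gene, COX7C, was far higher. Of the 40 genes, 20 fell (50.0%), 2 rose (5.00%) and 18 did not pass the threshold, an adjusted p of 0.05 in limma over all 14294 genes tested. Over all genes tested, 53.6% passed, 31.5% as lower and 22.1% as higher. The median log2 fold change, on the log2(TPM + 1) scale, was -0.21 for the 40 genes and -0.07 for all genes tested. After median-of-ratios scaling these medians were -0.12 and 0.0078, 16 of the 40 genes were lower and 3 higher, and over all genes tested 3838 were lower and 3758 higher, against 4499 and 3158 by TPM. The 4 genes that passed and changed at least 2-fold were COX7C, ATP5F1A, ATP5MC1 and CYCS, against 11.9% of all genes tested. In TPM, 23 genes had all 3 MEN1 shRNA libraries below all 3 controls (35.9% over all genes tested) and 3 had them above (25.8%), and in the other 14 the groups overlapped. Groups were apart in either direction in 61.8% of all genes tested. All 40 genes passed the filter on low values, with control means from 48.3 TPM for ATP5F1E to 1144 TPM for ATP5F1A and a median of 273 TPM.

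**Figure D1:**
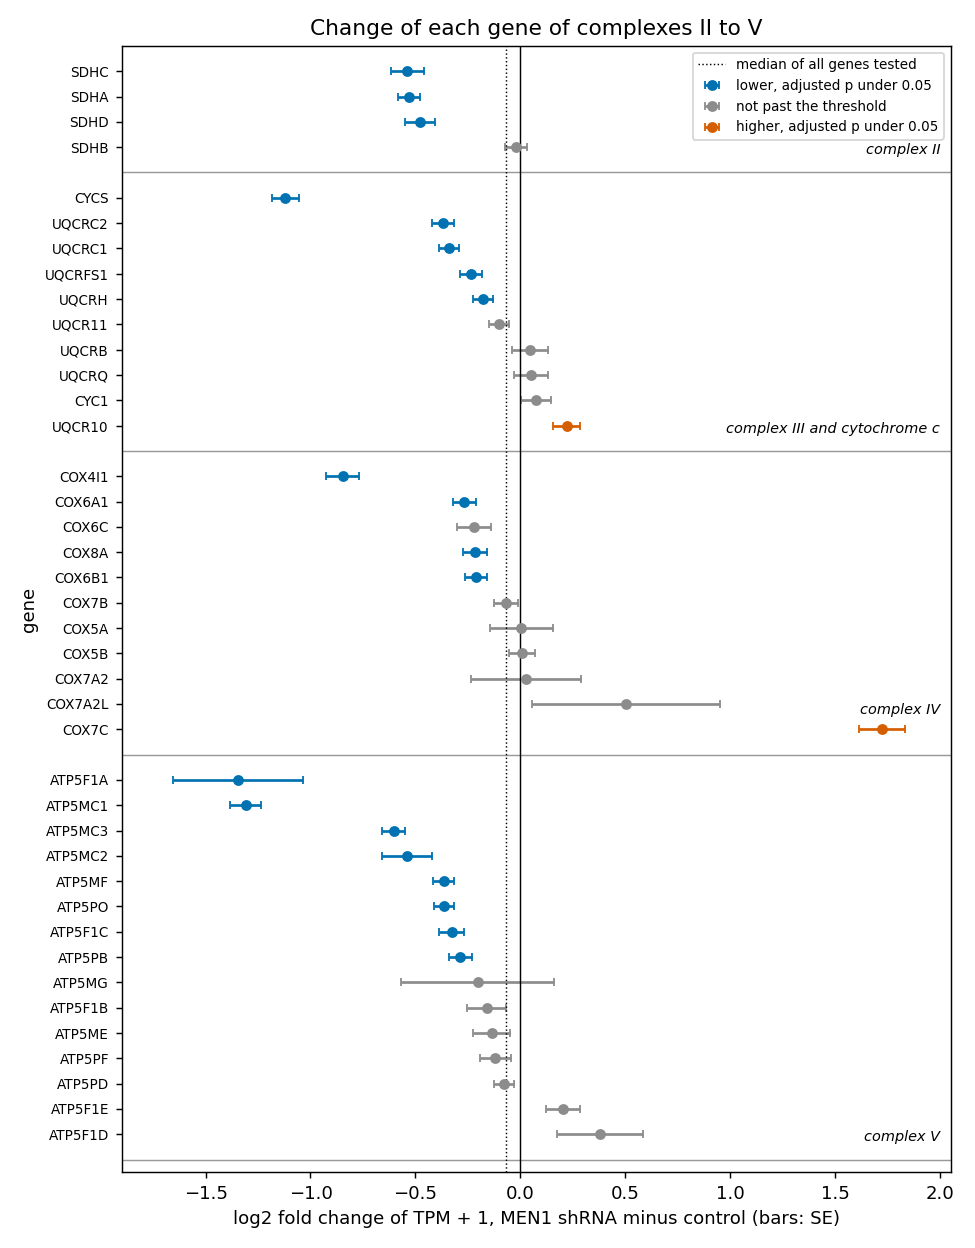
Log2 fold change of TPM + 1 (horizontal axis, MEN1 shRNA minus control shRNA) with its SE for each of the 40 genes, grouped by complex. Blue and orange points passed the threshold as lower (20) and higher (2), grey points did not (18), and the dotted line is the median of all genes tested (-0.07).

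**Figure D2:**
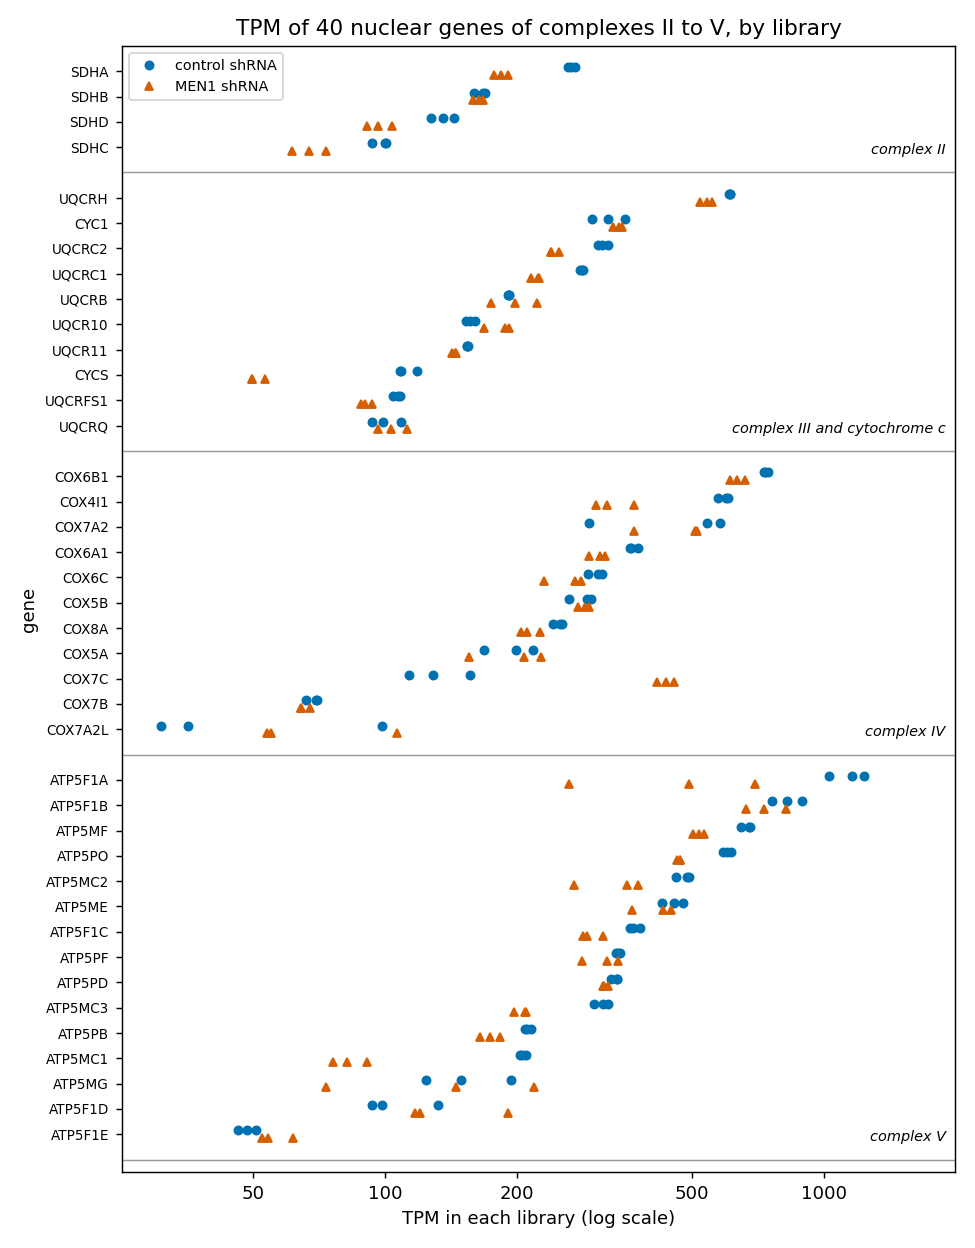
TPM of each gene in each of the 6 libraries on a log axis, with circles for the control shRNA and triangles for the MEN1 shRNA. Genes are ordered by control mean within each complex, and the triangles lie apart from the circles in 26 of the 40 genes, 23 to the left and 3 to the right.

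Promoters are shown for the largest fall with a narrow spread, ATP5MC1, for the electron carrier gene CYCS, and for the 2 genes that rose, COX7C and UQCR10. Each line gives the 250 bases before the RefSeq start on GRCh38.p14, 5′ to 3′ on the gene's strand. Capitals mark matches, on either strand, to 1 of 7 short motifs.
ATP5MC1, chr17:48892537-48892786, plus strand: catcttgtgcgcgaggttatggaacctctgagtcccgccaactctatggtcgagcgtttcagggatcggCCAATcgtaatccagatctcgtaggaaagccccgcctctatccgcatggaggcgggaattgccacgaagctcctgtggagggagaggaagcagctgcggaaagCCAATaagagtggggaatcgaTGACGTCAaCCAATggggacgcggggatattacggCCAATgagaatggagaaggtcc
CYCS, chr7:25125261-25125510, minus strand: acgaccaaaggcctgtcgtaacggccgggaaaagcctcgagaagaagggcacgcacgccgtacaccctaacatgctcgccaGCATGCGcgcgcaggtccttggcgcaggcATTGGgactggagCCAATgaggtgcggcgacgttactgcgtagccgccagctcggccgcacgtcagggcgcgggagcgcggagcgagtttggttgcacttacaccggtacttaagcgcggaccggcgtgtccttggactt
COX7C, chr5:86617691-86617940, plus strand: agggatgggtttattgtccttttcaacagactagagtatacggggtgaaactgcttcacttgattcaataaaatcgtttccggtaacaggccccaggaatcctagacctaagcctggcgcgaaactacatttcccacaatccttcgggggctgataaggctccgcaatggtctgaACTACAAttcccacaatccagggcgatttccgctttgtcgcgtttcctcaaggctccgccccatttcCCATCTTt
UQCR10, chr22:29767119-29767368, plus strand: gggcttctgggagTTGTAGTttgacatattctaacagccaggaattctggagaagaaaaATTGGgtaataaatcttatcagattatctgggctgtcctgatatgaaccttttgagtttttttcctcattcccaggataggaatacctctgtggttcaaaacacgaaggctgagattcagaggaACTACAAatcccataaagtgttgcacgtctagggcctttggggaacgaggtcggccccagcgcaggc
ATP5MC1 held 4 CCAAT boxes, at 181, 78, 48 and 22 bases before the start, and a palindromic cyclic AMP response element core (TGACGTC on both strands, overlapping) 57 bases before it. CYCS held an NRF1 core (GCATGCG) 169 bases before the start and CCAAT boxes at 140 and 127 bases. COX7C held an ACTACAA motif of the ZNF143 type 75 bases before the start and, on the other strand, a YY1 core (AAGATGG) at 8 bases. UQCR10 held ACTACAA at 67 bases, the same motif on the other strand at 237 bases, and a CCAAT box on the other strand at 191 bases. The deposited genes start 22 bases before the RefSeq start in ATP5MC1 and 13 bases before it in COX7C. The ATP5MC1 box at 22 bases and the COX7C YY1 core at 8 bases thus lie within the deposited genes. For CYCS and UQCR10 the starts coincide.

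The RefSeq table held a promoter for 32 of the 40 genes, in a window that adds the 50 bases after the start. In that 300-base window and on both strands, the ETS core bound by GABP (CCGGAAG) was in 46.9% of the 32 promoters and in 10.3% of all 35093 promoters of the table. The NRF1 core was in 28.1% against 3.91%, the YY1 core in 28.1% against 5.84%, and CCAAT in 43.8% against 34.6%. The E-box of the MYC-MAX type (CACGTG) was in 12.5% against 7.26%, and the cyclic AMP response element core in 9.38% against 3.45%. ACTACAA was in 4 of the 32 promoters (12.5%) against 2.78%. Those 4 were COX7C and UQCR10, which rose, and COX6A1 and ATP5PO, which fell. Of the 17 genes with a promoter that fell, 7 held the ETS core, 5 the NRF1 core and 8 a CCAAT box. Genes that did not pass held these cores too. Among them the ETS core was in SDHB, UQCRQ, UQCR11, COX5B, ATP5PD, ATP5ME, ATP5MG and ATP5PF. The NRF1 core was in SDHB, COX5B, ATP5ME and ATP5PF of the genes that did not pass. Neither COX7C nor UQCR10 held the ETS or NRF1 core in this window. A match describes letters only and is not a measured binding site.

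In complex II, the flavoprotein and both membrane anchors fell to 68.7% to 71.7% of control, and the iron-sulfur subunit did not pass the test. SDHA, the flavoprotein that oxidises succinate, was at 183, 177 and 190 TPM under MEN1 shRNA and 265, 270 and 261 TPM in the controls. The groups did not overlap, and the level fell to 69.1% of the control mean (log2 fold change -0.53, SE 0.0516, limma adjusted p = 0.000139). Copies of SDHA are listed as well, such as an SDHAP4 row at 16.5 to 16.8 TPM against 11.1 to 14.3 TPM. Reads of near-identical copies may be divided between the rows. Over the alternatives the log2 fold change of SDHA ran from -0.56 to -0.44. SDHC, 1 of the 2 membrane anchors that bind ubiquinone, was at 73.3, 67.0 and 61.2 TPM against 93.1, 99.9 and 100.2 TPM. Its groups were also apart, at 68.7% of control (log2 fold change -0.54, SE 0.0780, limma adjusted p = 0.000846). SDHD, the other anchor, fell as well, from 135 ± 8.06 to 96.9 ± 6.22 TPM (SD, n = 3 each), with a log2 fold change of -0.48 in limma. SDHB, which carries the iron-sulfur clusters, was at 159, 167 and 164 TPM against 160, 167 and 169 TPM. Those values interleave, and its log2 fold change of -0.02 (SE 0.0526, limma adjusted p = 0.776) turned to 0.07 after median-of-ratios scaling. Summed over the 4 genes, complex II was at 511 ± 4.35 TPM against 664 ± 16.6 TPM (SD, n = 3 each), or 76.9% of control.

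**Figure D3:**
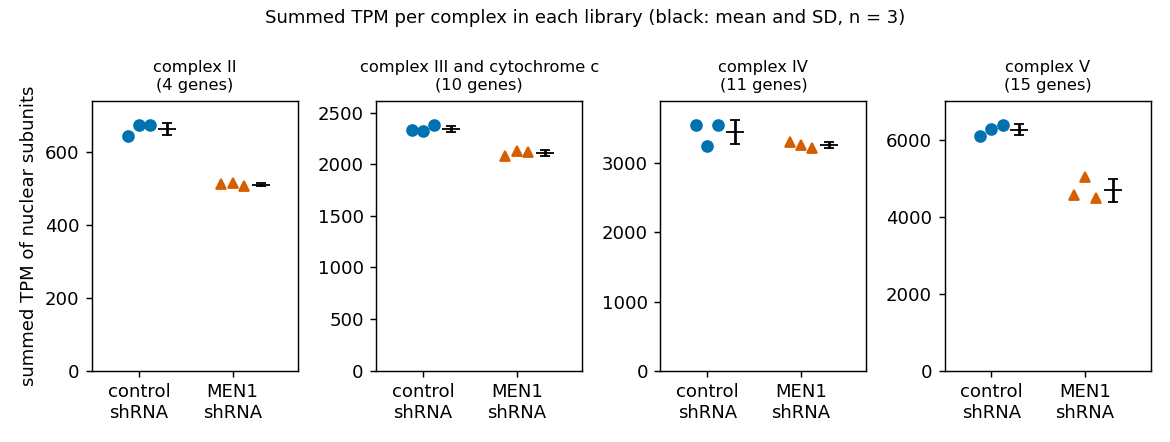
Summed TPM of the nuclear genes of each complex (vertical axis, starting at 0) in each library, circles for the control shRNA and triangles for the MEN1 shRNA, with the mean and SD in black. The groups are apart for complexes II, III with cytochrome c, and V, while for complex IV control replicate 2 lies among the MEN1 shRNA libraries.

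In complex III, both core proteins and the Rieske protein were lower, 1 small subunit was higher, and the mobile carrier cytochrome c fell most. Of the 10 genes, 5 fell, 1 rose and 4 did not pass, with a median log2 fold change of -0.14. That is 50.0% lower and 10.0% higher, against 31.5% and 22.1% over all genes tested. CYCS, which encodes the somatic cytochrome c that shuttles electrons to complex IV and takes part in apoptosis when released, was at 53.0, 49.6 and 49.7 TPM under MEN1 shRNA. The controls were at 109, 108 and 118 TPM, more than double every MEN1 shRNA library. The level was 45.5% of control, with a log2 fold change of -1.12 (SE 0.0629, limma adjusted p = 2.52e-05). UQCRC2, a core protein on the matrix side, was at 249, 239 and 239 TPM against 305, 313 and 321 TPM. No library of one group reached the other, and the log2 fold change was -0.37 (SE 0.0506, limma adjusted p = 0.000652). Its partner core protein UQCRC1 fell by a like amount, from 280 ± 1.49 to 221 ± 5.05 TPM (SD, n = 3 each; log2 fold change -0.34).

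The proteins that carry the redox centres of complex III differed from each other. UQCRFS1, the Rieske iron-sulfur protein, fell from 106 ± 2.02 to 90.2 ± 2.71 TPM (SD, n = 3 each; log2 fold change -0.24), a call that was lost after median-of-ratios scaling (adjusted p = 0.0657). A processed copy of it, UQCRFS1P1, is listed at 6.48 to 17.3 TPM, and reads of near-identical copies may be divided between the rows. CYC1, the cytochrome c1 subunit, stood at 339 ± 8.50 TPM against 323 ± 27.7 TPM and did not pass (log2 fold change 0.07, adjusted p = 0.414).

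Among the small subunits of complex III, UQCR10 rose, UQCRH fell, and UQCRB, UQCRQ and UQCR11 did not pass. UQCR10, which spans the membrane beside the Rieske protein, was at 168, 188 and 191 TPM against 156, 160 and 152 TPM. All 3 MEN1 shRNA libraries were above all controls, at 117% of control, and the log2 fold change was 0.22 (SE 0.0642, limma adjusted p = 0.0210). That call was lost without MEN1 shRNA replicate 2 or 3 (adjusted p = 0.0703 and 0.0715) and without control replicate 1 or 3 (0.0531 and 0.0670), with no filter on low values (0.0523) and with no mean-variance trend (0.0542). UQCRH, the hinge protein near the cytochrome c docking face, fell from 611 ± 1.28 to 540 ± 16.8 TPM (SD, n = 3 each; log2 fold change -0.18, adjusted p = 0.0177). Its call ended without MEN1 shRNA replicate 3 (adjusted p = 0.0606), without control replicate 2 (0.0503), after median-of-ratios scaling (0.218), without globin and mitochondrial genes in the TPM total (0.106) and with no mean-variance trend (0.0619). The related gene UQCRHL, named after its values were seen, was at 17.5 ± 4.41 against 10.8 ± 5.39 TPM (SD, n = 3 each). It did not pass (log2 fold change 0.76, limma adjusted p = 0.131), and reads of near-identical copies may be divided between the rows. The log2 ratio of its mean scaled coverage had the other sign, at -0.26. Its ratio of coverage to FPKM varied 6.25-fold between libraries, so the direction depends on the measure. UQCRB, which contacts the ubiquinone site, was at 175, 197 and 222 TPM against 190, 191 and 191 TPM. The treated libraries lay on both sides of the tight controls (log2 fold change 0.04, SE 0.0856, adjusted p = 0.695). UQCRQ was at 96.3, 112 and 103 TPM against 98.7, 109 and 93.2 TPM, with fully mixed groups (log2 fold change 0.05, SE 0.0817, adjusted p = 0.632). UQCR11 was below the controls in all 3 MEN1 shRNA libraries, at 93.3% of control, without passing (log2 fold change -0.10, adjusted p = 0.116).

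Complex IV held the largest rise of the 40 genes beside mostly small differences. Of its 11 genes, 4 fell, 1 rose and 6 did not pass, with a median log2 fold change of -0.07. That is 36.4% lower and 9.09% higher, against 31.5% and 22.1% over all genes tested. The share that fell was thus near that of all genes. COX7C, a small membrane-spanning subunit, lies at chr5:86617928-86620962. It was at 457, 416 and 436 TPM under MEN1 shRNA and 113, 156 and 128 TPM with the control shRNA. Every MEN1 shRNA library was far above every control, at 329% of the control mean, and the log2 fold change was 1.72 (SE 0.110, limma adjusted p = 3.36e-05). COX4I1, the ubiquitous form of the largest nuclear subunit, was at 368, 321 and 302 TPM against 599, 573 and 605 TPM. Its groups were widely separated, at 55.7% of control (log2 fold change -0.85, SE 0.0786, limma adjusted p = 0.000118). The 5′ end of COX4I1 overlaps EMC8 on the other strand, and reads there can be told apart only if the quantification used strand. COX6A1, the non-muscle form of subunit VIa, was at 309, 317 and 291 TPM against 377, 362 and 364 TPM. That is a smaller but non-overlapping difference, with a log2 fold change of -0.27 (SE 0.0541, limma adjusted p = 0.00423).

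COX6B1, which joins the monomers of the complex IV dimer, fell from 737 ± 7.11 to 637 ± 25.3 TPM, and COX8A, a small membrane subunit, fell from 248 ± 6.42 to 213 ± 10.8 TPM (SD, n = 3 each). Their log2 fold changes were -0.21 and -0.22, and both calls were lost after median-of-ratios scaling (adjusted p = 0.123 for each) and without globin and mitochondrial genes in the TPM total (adjusted p = 0.0543 and 0.0629). COX6C was lower in all 3 MEN1 shRNA libraries, at 260 ± 25.8 against 302 ± 11.5 TPM, and lay just outside the threshold (log2 fold change -0.22, adjusted p = 0.0504). It passed under some alternatives, among them without MEN1 shRNA replicate 2 (adjusted p = 0.0381) and by coverage (0.0132). COX5A, a subunit on the matrix side, was at 155, 207 and 227 TPM against 217, 199 and 168 TPM. Its libraries spread widely in both groups (log2 fold change 0.00, SE 0.150, adjusted p = 0.987). COX5B, a zinc-binding subunit, was at 285, 292 and 275 TPM against 289, 295 and 262 TPM. Those ranges coincide almost wholly (log2 fold change 0.01, SE 0.0622, adjusted p = 0.911). COX7B, another membrane-spanning subunit, was at 64.2, 64.2 and 67.4 TPM against 69.6, 65.9 and 69.8 TPM. The groups overlapped at their edges (log2 fold change -0.07, SE 0.0575, adjusted p = 0.362).

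COX7A2 and its relative COX7A2L, which joins complex IV to complex III in supercomplexes, varied more within groups than between them. COX7A2 was at 509, 369 and 514 TPM against 541, 291 and 582 TPM. In each group replicate 2 was the low library (log2 fold change 0.03, SE 0.261, adjusted p = 0.945). Without control replicate 2 the log2 fold change was -0.29 and still not past the threshold. COX7A2L was at 54.9, 106 and 53.7 TPM against 35.4, 30.8 and 98.2 TPM. A single library in each group stood high, and the log2 fold change of 0.50 did not pass (SE 0.447, adjusted p = 0.377). Without control replicate 3, the high control library, it was 1.02 and passed (adjusted p = 0.0260). Both genes are among the 3 of the 40 whose ratio of coverage to FPKM varied more than 1.2-fold between libraries, by 1.53-fold and 1.51-fold, so the mix of isoforms assigned to them differed between libraries. Over the 11 genes of complex IV the summed TPM was 3263 ± 46.2 against 3451 ± 173 (SD, n = 3 each), or 94.6% of control, and 85.2% without COX7C. After median-of-ratios scaling the difference of the summed TPM, a log2 ratio of -0.08, turned to 0.01.

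In complex V, 8 of 15 genes fell (53.3%) and none rose, against 31.5% and 22.1% over all genes tested. The median log2 fold change of complex V was -0.29. The c ring had the lowest median of its parts, at -0.60, against -0.16 for the F1 head and central stalk and -0.20 for the peripheral stalk and for subunits e, f and g. Subunit c, which rotates as protons pass, is encoded by 3 genes that give the same mature protein, and all 3 fell. ATP5MC1 was at 90.6, 75.9 and 81.7 TPM under MEN1 shRNA and 203, 205 and 210 TPM with the control shRNA. The tight groups lay far apart, at 40.2% of control (log2 fold change -1.31, SE 0.0723, limma adjusted p = 2.43e-05). ATP5MC3 was at 209, 196 and 209 TPM against 299, 322 and 314 TPM. This was a separation without overlap at 65.7% of control (log2 fold change -0.60, SE 0.0552, limma adjusted p = 0.000110). ATP5MC2 was at 269, 376 and 357 TPM against 489, 461 and 493 TPM. MEN1 shRNA replicate 1 was the lowest library, and all 3 were below the controls (log2 fold change -0.54, SE 0.120, limma adjusted p = 0.00654). Together the 3 genes summed to 622 ± 45.1 TPM against 999 ± 15.6 TPM (SD, n = 3 each), or 62.2% of control. Within that sum ATP5MC1 gave 13.4% ± 2.21 of the transcripts under MEN1 shRNA and 20.6% ± 0.138 with the control shRNA (SD, n = 3 each). ATP5MC2 gave 53.5% against 48.1% and ATP5MC3 gave 33.1% against 31.2%.

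ATP5F1A, the alpha subunit of the catalytic F1 head, lies at chr18:46080248-46104334 and was the most abundant of the 40 genes in the controls. It was at 492, 696 and 262 TPM under MEN1 shRNA and 1031, 1161 and 1239 TPM with the control shRNA. All MEN1 shRNA libraries were below all controls, but they differed from each other by more than 2-fold, and replicate 3 was lowest. The log2 fold change was -1.35 (SE 0.309, limma adjusted p = 0.00763), and -0.96 without MEN1 shRNA replicate 3. Its read coverage, scaled for depth and expressed in FPKM units, was 31.9, 32.0 and 29.4 under MEN1 shRNA and 45.96, 50.4 and 52.1 with the control shRNA. On that measure the MEN1 shRNA libraries nearly coincide, and the log2 fold change was -0.65 (adjusted p = 0.000492), less than the value from TPM. The ratio of scaled coverage to FPKM, which is 1 for a gene with 1 transcript, was 0.139, 0.0980 and 0.242 against 0.0961, 0.0959 and 0.0925. The isoforms to which the reads were assigned thus differed between MEN1 shRNA libraries, and the size of the fall depends on the measure.

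**Figure D4:**
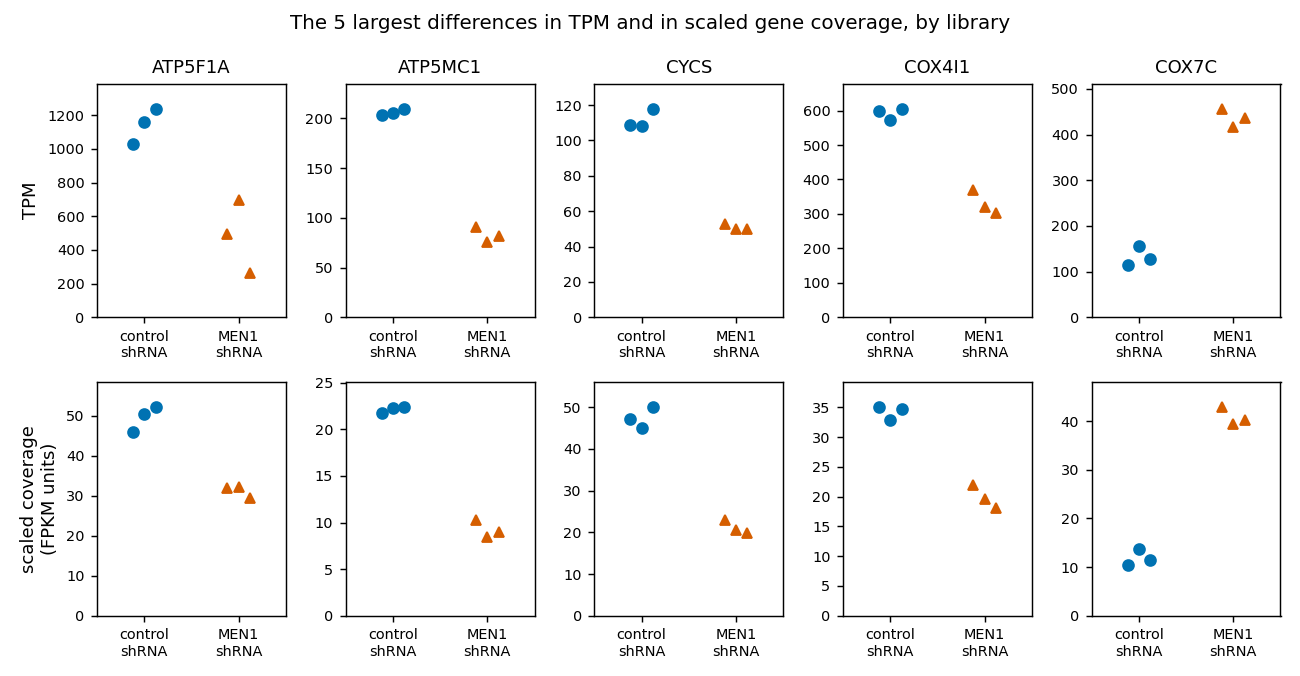
TPM (top row) and depth-scaled gene coverage in FPKM units (bottom row), each axis starting at 0, in each library for the 5 genes with the largest log2 fold changes. In ATP5F1A the 3 MEN1 shRNA libraries spread from 262 to 696 TPM and lie between 29.4 and 32.0 in coverage, while ATP5MC1, CYCS, COX4I1 and COX7C look alike on both measures.

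The other parts of the F1 head and central stalk changed less. ATP5F1C, the gamma subunit that turns inside the head, fell from 370 ± 10.5 to 295 ± 16.7 TPM (SD, n = 3 each; log2 fold change -0.33). ATP5F1B, the catalytic beta subunit, stood at 739 ± 78.8 against 825 ± 65.4 TPM and did not pass (log2 fold change -0.16, adjusted p = 0.184). For the delta subunit ATP5F1D the means were 142 ± 41.7 and 108 ± 20.9 TPM, with MEN1 shRNA replicate 3 high at 191 TPM (log2 fold change 0.38, adjusted p = 0.160). ATP5F1E, the epsilon subunit, was above the controls in all 3 MEN1 shRNA libraries, at 55.9 ± 4.98 against 48.3 ± 2.32 TPM. It did not pass (log2 fold change 0.20, adjusted p = 0.0664), but did without MEN1 shRNA replicate 1 (adjusted p = 0.0412), with FPKM in place of TPM (0.0467) and under 3 other scalings (0.0226 to 0.0252).

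The peripheral stalk, which holds the F1 head still against the rotor, was lower in 2 of its 4 genes. ATP5PO, the subunit at the top of the stalk, fell from 603 ± 11.9 to 468 ± 4.99 TPM, and ATP5PB, its long membrane-anchored subunit, from 211 ± 3.61 to 173 ± 9.00 TPM (SD, n = 3 each). Their log2 fold changes were -0.36 and -0.29, and the 5′ end of ATP5PB overlaps WDR77 on the other strand. ATP5PD was at 313, 322 and 315 TPM against 338, 328 and 338 TPM. Each treated library was below each control by a small margin, and the gene did not pass (log2 fold change -0.08, SE 0.0474, adjusted p = 0.199). ATP5PF was at 92.3% of control and did not pass (log2 fold change -0.12, adjusted p = 0.215). Of the membrane subunits e, f and g, which bend the membrane where synthases pair, ATP5MF fell from 669 ± 17.0 to 519 ± 15.2 TPM (SD, n = 3 each; log2 fold change -0.37). ATP5ME, at 91.2% of control, did not pass (log2 fold change -0.14, adjusted p = 0.221). ATP5MG was at 73.2, 218 and 145 TPM against 149, 124 and 194 TPM. It had no direction beyond its spread (log2 fold change -0.20, SE 0.363, adjusted p = 0.666). Summed over 15 genes, complex V was at 4688 ± 301 TPM against 6260 ± 138 TPM (SD, n = 3 each), or 74.9% of control. Without ATP5F1A it was at 4204 ± 136 against 5116 ± 33.2 TPM, or 82.2% of control.

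Over all 40 genes the summed TPM was 10572 ± 326 under MEN1 shRNA and 12721 ± 239 with the control shRNA (SD, n = 3 each), or 83.1% of control, and 87.1% without ATP5F1A. With all 40 genes that is 1.06% of all transcripts against 1.27%. Complex III with cytochrome c was at 2111 ± 28.5 against 2346 ± 30.05 TPM, or 90.0% of control. The 37 nuclear subunits of complex I, the NADH dehydrogenase, were at 90.6% of control, with a median log2 fold change of -0.20. Of them 17 were lower (45.9%) and 3 higher (8.11%), against 31.5% and 22.1% over all genes tested. Among them NDUFB5 had the largest change (14.8 ± 1.49 against 73.4 ± 19.0 TPM, log2 fold change -2.21, limma adjusted p = 8.62e-05), and the log2 ratio of its mean scaled coverage was -1.97. NDUFB3 and NDUFV2 also fell, with log2 fold changes of -0.66 and -0.47, and NDUFB1 rose by 0.52.

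Genes that build these complexes without being part of them, their assembly factors, were mostly lower. Of 47 tested, 28 fell (59.6%), 4 rose (8.51%) and 15 did not pass, with a median log2 fold change of -0.36. Over all genes tested, 31.5% fell and 22.1% rose. In 13 of the 47 the ratio of coverage to FPKM varied more than 1.2-fold between libraries, by 1.59-fold in COX15. COX10 and COX15, which make the heme a of complex IV, fell from 21.4 ± 0.0984 to 8.41 ± 1.42 TPM and from 31.5 ± 1.47 to 13.4 ± 1.66 TPM (SD, n = 3 each). Their log2 fold changes were -1.26 and -1.18 (limma adjusted p = 0.000108 and 8.56e-05). COA1, an early assembly factor of complex IV, fell by 1.29 on the log2 scale, and LRPPRC, which stabilises mitochondrial messenger RNAs, by 0.75. COX17, the copper carrier for complex IV, rose from 83.9 ± 6.82 to 178 ± 24.0 TPM, and HIGD1A, a hypoxia-induced protein that binds complex IV, from 75.7 ± 2.72 to 161 ± 6.60 TPM (SD, n = 3 each). Those 2 rises were 1.07 and 1.08 on the log2 scale (limma adjusted p = 0.000170 and 2.43e-05). The other 2 genes that rose, named after their values were seen, were SDHAF2 (0.37) and CMC2 (0.27).

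Of 14 further subunits and tissue isoforms, 7 reached the level for testing, and 2 of those fell (28.6%, against 31.5% over all genes tested). ATP5MK, a small subunit of the ATP synthase dimer, fell by 0.39 on the log2 scale, and the testis-type isoform COX6B2 fell from 7.63 ± 2.04 to 2.78 ± 1.00 TPM (SD, n = 3 each; log2 fold change -1.20, limma adjusted p = 0.00360). ATP5IF1, the inhibitor of the ATP synthase, stood at 282 ± 17.3 against 325 ± 28.6 TPM and did not pass (log2 fold change -0.20, adjusted p = 0.0668), though it did without MEN1 shRNA replicate 1 (0.0473) or control replicate 3 (0.0269). The tissue isoforms COX4I2, COX6A2, COX7B2 and COX8C were listed at 0 in every library. Of the mitochondrially encoded partners, MT-ATP6 was at 14999 ± 974 against 17277 ± 426 TPM and did not pass (log2 fold change -0.21, adjusted p = 0.0547). MT-CYB (log2 fold change -0.46, adjusted p = 0.241) and MT-ATP8 (-0.15, adjusted p = 0.689) did not pass either. Among the complex IV partners, MT-CO1 and MT-CO2 were listed at 0 in every library and MT-CO3 at 0 or within rounding of it, which can be a failed estimate, so complex IV could not be compared with its mitochondrial core.

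Regulators of mitochondrial gene expression fell more often than they rose, with a median log2 fold change of -0.49. Of 20 tested, 15 were lower (75.0%) and 1 higher (5.00%), against 31.5% and 22.1% over all genes tested. In 8 of the 20 the ratio of coverage to FPKM varied more than 1.2-fold between libraries, by 2.57-fold in PPARGC1B and 1.87-fold in TFAM. ESRRG, an orphan nuclear receptor that activates oxidative genes, fell from 31.8 ± 1.37 to 7.08 ± 1.63 TPM, and MYC, a growth regulator with many mitochondrial targets, from 232 ± 6.52 to 74.1 ± 15.4 TPM (SD, n = 3 each). Their log2 fold changes were -2.04 and -1.65 (limma adjusted p = 5.08e-05 and 6.40e-05). POLG2 and TWNK, both of the mitochondrial DNA replication machinery, fell by 1.71 and 1.41, and the coactivator PPARGC1B fell by 1.23. PPRC1, a related coactivator, fell by 0.32. TFAM, which packages mitochondrial DNA, fell by 0.58 (adjusted p = 0.0155), a call lost with no filter on low values (0.0682). Of the genes on this list for factors named with the promoter motifs, MYC fell, as given above, and 3 others did not pass. ZNF143 and MAX are not on the list. NRF1 (log2 fold change 0.07, adjusted p = 0.486), GABPA (0.15, adjusted p = 0.110) and YY1 (-0.11, adjusted p = 0.185) did not pass, and GABPA, the DNA-binding subunit of GABP, passed as higher under 3 scalings (adjusted p = 0.0158 to 0.0348) and by coverage (0.0196). ESRRA passed narrowly as lower (log2 fold change -0.19, adjusted p = 0.0432), and the call was lost on leaving out any 1 library except MEN1 shRNA replicate 3, and under 3 other scalings (adjusted p = 0.140 to 0.349). GABPB2 was the 1 gene of the list that rose (0.70), while GABPB1, also a partner subunit of GABPA, fell (log2 fold change -0.41, adjusted p = 0.00683). Both are named after their values were seen.

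**Figure D5:**
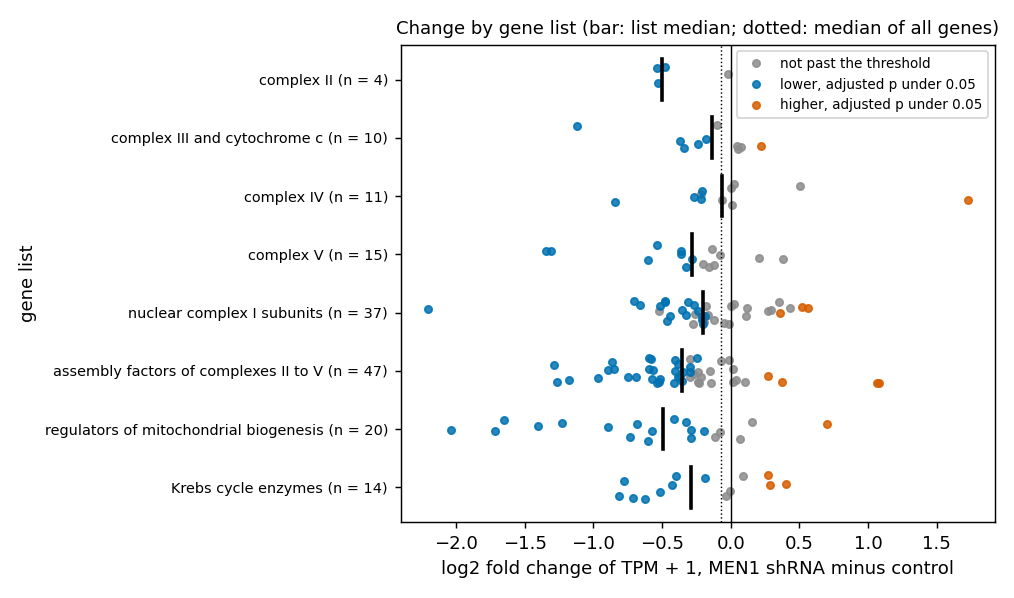
Log2 fold change of TPM + 1 of each gene tested (points) in the 4 complexes and 4 related lists, with list medians as black bars and the median of all genes tested (-0.07) as a dotted line. List medians run from -0.07 for complex IV to -0.50 for complex II, and COX7C at 1.72 stands farthest to the right.

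The Krebs cycle enzymes, which feed electrons to complexes I and II, were split. Of 14 genes, 8 fell (57.1%) and 3 rose (21.4%), against 31.5% and 22.1% over all genes tested, with a median log2 fold change of -0.29. IDH3B, a subunit of the NAD-dependent isocitrate dehydrogenase, fell by 0.81, the fumarase gene FH by 0.63 and the citrate synthase gene CS by 0.43, each on the log2 scale. The 3 that rose, IDH3G (0.28), OGDH (0.27) and DLST (0.40), were named after their values were seen.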

How the data were processed

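Poly(A)-selected RNA was made into directional libraries, per the labels' protocols. The submitters' processing notes name the hg38 build and FastQC, Trimmomatic, STAR 2.7.1a, Picard 2.20.4 and StringTie 2.0.4, without roles. Which annotation was used, and whether quantification used strand, is not given in the sources used here. The deposited TPM values sum to 1000000 in every library. FPKM, the second deposited unit, is per kilobase and scaled to the fragments of the library, and the deposited coverage is mean reads per exonic base, both per the file headers. In control replicate 2, 3 deposited TPM or coverage values just below 0 were set to 0. No read counts were recovered, so no count model was fitted. Because TPM divides a fixed total, more globin RNA leaves less for other genes.

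Genes with at least 1 TPM in 3 or more of the 6 libraries were tested on log2(TPM + 1), which understates changes of low genes. The fit was limma 3.58.1 in R 4.3.3 (lmFit, eBayes with a mean-variance trend), MEN1 shRNA minus control shRNA, 2-sided. P-values were adjusted by Benjamini-Hochberg over all 14294 genes, with a threshold of 0.05. All adjusted p-values in the text come from limma. A single gene's exact permutation test of 3 against 3 libraries cannot go below 0.1 and was not used. The step was tested on simulated data. Python 3.11.15 with matplotlib 3.10.9, NumPy 2.4.6 and pandas 2.3.3 made the tables and figures.

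Depth was inferred from coverage per FPKM in single-transcript genes, which agreed within 0.1% in 94.9% to 95.4% of them, and from read pairs of 302 bases. Scaled coverage is coverage divided by that ratio. Of 58261 gene identifiers found in GENCODE v29 (GRCh38), 58246 overlap their position there. Positions are those of the deposited tables. Promoters are from RefSeq (GRCh38.p14).

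Every one of the 40 genes is named. Values by library go to MEN1, to the 2 genes of each complex with the lowest adjusted p in each direction, to the 3 largest changes, to the ATP5MC genes and to genes whose sign turned under an alternative. From the other lists the 4 genes with the lowest adjusted p and changes of at least 1 on the log2 scale are named (at most 6), together with NRF1, GABPA, ESRRA, YY1, TFAM, PPRC1, MYC and ATP5IF1; 1 gene is not reported here. The genes and lists were chosen with earlier results of these data known. The motifs, the coverage measure, the pseudogene sums and the neighbour rule were added after seeing the data. Alternatives covered the pseudocount, filters, units, scalings, variance model, a minimum fold change, a replicate block and leaving out each library.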

Additional observations from a re-analysis of the deposited data

How the results depend on the processing

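Over 19 alternatives, the 40 genes gave 760 comparisons: 694 left the sign and the call as they were, 35 lost a call, 10 gained one and 21 turned sign, in 9 genes, none of which had passed. Against a minimum log2 fold change of 0.5 (limma treat), 2126 genes passed (848 higher, 1278 lower). That is 14.9% of all genes tested, with 8.94% lower. Of the 40 genes 4 passed, with 1 higher (COX7C) and 3 lower (ATP5MC1, CYCS, COX4I1), and ATP5F1A did not (adjusted p = 0.0817). The same test passed 7 of 47 assembly factors, 0 of 7 other subunits, 6 of 20 regulators, 1 of 37 complex I genes and 2 of 14 Krebs cycle genes. By the main limma test 2 other subunits passed. Of the 40 genes, 1 was higher with no filter on low values or no mean-variance trend, and leaving out 1 library at a time gave 1 to 3 higher and 19 to 21 lower. Over all genes tested, leaving out 1 library gave 2639 to 3130 higher and 3847 to 4412 lower (26.9% to 30.9%). Other subunits ranged from 2 to 4 on leaving out 1 library, being 4 without MEN1 shRNA replicate 1 or control replicate 3. Of the mitochondrial partners 1 passed with a mean TPM of at least 5 or quantile normalization.

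Median-of-ratios scaling gave 16 lower and 3 higher, and TPM without globin and mitochondrial genes 17 and 3. Over all genes tested, these 2 scalings gave 3838 and 3975 lower (26.9% and 27.9%) and 3758 and 3558 higher. Under these, log2 ratios of summed TPM were -0.18 and -0.20 for all 40 genes, -0.29 and -0.31 for complex II, -0.0644 and -0.0853 for complex III with cytochrome c, and 0.0063 and -0.0138 for complex IV, and -0.33 for complex V under the first. With FPKM they were -0.35 for complex II and -0.12 for complex III. The cause was not tested.

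Signs turned for SDHB (0.0119 with FPKM, 0.0676 with median-of-ratios, 0.0466 without globin and mitochondrial genes, 0.0118 by coverage), COX7B (0.0199 with median-of-ratios, 0.0054 with quantile), ATP5PD (0.0089 with median-of-ratios), COX7A2 (-0.0216 with quantile), UQCRQ (-0.0045 by coverage) and COX5A (-0.10 by coverage). Leaving out 1 library gave -0.0407 to 0.13 for UQCRB, -0.0067 to 0.11 for UQCRQ, -0.11 to 0.16 for COX5A, -0.0420 to 0.0426 for COX5B, -0.29 to 0.21 for COX7A2 and -0.56 to 0.22 for ATP5MG.

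With the replicate number as a block, 22 of the 40 genes passed, 20 lower and 2 higher: UQCRH lost its call (adjusted p = 0.0541) and COX6C gained one (0.0393). Over all genes tested, 49.1% passed with this block, 4117 as lower (28.8%) and 2895 as higher. Deviations of same-numbered libraries correlated at 0.017, -0.027 and -0.012, and those of differently numbered libraries at -0.017 to 0.033. On the second principal component (6.67% of the variance), replicates 1, 2 and 3 lay at 17.3, 0.73 and -14.95 under MEN1 shRNA. With the control shRNA they lay at 13.5, -3.39 and -13.2, in the same order. With 3 libraries per group, such values cannot show whether same-numbered libraries were handled together. No count-based interval could be given, since depth was only inferred.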

Other observations

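Several of the 40 genes share a promoter region with a gene on the other strand. Only neighbours with a gene name that passed the filter on low values were counted. Of the 40, 10 had such a neighbour, with the deposited starts within 1000 bases of each other. Of the 10 neighbours, 5 fell, 3 rose and 2 did not pass in limma. Over all genes tested, 31.5% fell and 22.1% rose, and 50.0% of the 40 genes fell. Whether paired genes move together more often than others was not tested. In 3 pairs both genes fell: COX4I1 and EMC8 (log2 fold changes -0.85 and -0.60), ATP5PB and WDR77 (-0.29 and -0.83), and SDHA and CCDC127 (-0.53 and -0.37). UQCR10 and ZMAT5 both rose (0.22 and 0.70). In 2 pairs the genes moved in opposite directions: UQCRH fell by 0.18 while LRRC41 rose by 0.21, and ATP5F1C fell by 0.33 while KIN rose by 0.39, each on the log2 scale. SDHD and ATP5F1A fell, and their neighbours TIMM8B (0.03) and HAUS1 (-0.06) did not pass. COX7B and ATP5ME did not pass, and their neighbours MAGT1 (-0.44) and MYL5 (-0.43) fell. In COX4I1, ATP5PB and ATP5ME the deposited spans overlap those of the neighbour. The span of ATP5PF likewise overlaps that of GABPA, with starts just over 1000 bases apart, so this pair is not among the 10. Where spans overlap, reads on opposite strands can be told apart only if the quantification used strand.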
